A study of Mus musculus with 28 samples.

Results

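The adult axonal translatome was set against the adult retinal translatome of the same mouse line. The members of this comparison are 4 libraries of the 28 in the series, chosen by their labels: 2 axon-TRAP libraries from the superior colliculus (SC) of Cre-positive adults and 2 libraries from the retina of Cre-positive adults. The mice were of strain C57BL/6 and carried both the RiboTag knock-in allele and the Pax6-alpha-Cre transgene, and the age was given only as adult. In RiboTag mice, Cre recombination makes a ribosomal protein carry a hemagglutinin (HA) tag, so that mRNA held on tagged ribosomes can be immunoprecipitated. Pax6-alpha-Cre acts in progenitors of the peripheral retina, so several retinal cell types carry the tag in the eye, whereas in the SC the tagged ribosomes are those in axons of retinal ganglion cells (RGCs). Each library was made from pooled tissue of several animals, and eyes rather than isolated cell types were the source of the retinal samples. Adult Cre-negative SC, with 2 libraries, holds the RiboTag allele without Cre and served as the background of the pull-down. A further 2 adult libraries, SC and retina of the run-off experiment without run-off, measured the same sources once more.

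RGCs send the only axons that leave the eye. Their cell bodies lie in the retina among photoreceptors, which turn light into a change of membrane potential through opsins, transducin and cyclic GMP, and among bipolar cells, amacrine cells and Müller glia. RGC axon terminals in the SC release glutamate and hold vesicles, mitochondria and a cytoskeleton of microtubules and neurofilaments, far from the nucleus. Translation in the axon can supply proteins there without transport from the cell body. A comparison of an axonal with a retinal pull-down therefore sets one compartment of one cell type against whole cells of many types, and a lower level in retina can come from fewer cells of a type or from less RNA per cell, which cannot be told apart in bulk samples.

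The values are FPKM, in which the fragments of a transcript are divided by its length and by the size of the library, so that levels of different genes can be compared per length within a library. The libraries differed in depth. From the spacing of low values, the axon libraries were estimated to hold 776000 and 1390000 fragments, the Cre-negative libraries 536000 and 2200000, and the retina libraries 10600000 and 7740000. On a transcript 2 kb long, 3 fragments give 2.12 and 1.19 FPKM in the axon libraries and 0.156 and 0.213 FPKM in the retina libraries, and these floors cover counting error only. Values above 0 were listed for 2756 and 1640 genes in axons and for 2082 and 8079 genes in retina. The top 10 genes took 29.4% to 39.8% of all FPKM in the 6 adult libraries. A listed 0 is not always an absence: Gapdh, a glycolytic enzyme that every cell uses, was listed at 0 in all 6 libraries. Replicates were only moderately alike. Across the 1901 genes described here, log2(FPKM + 1) correlated at 0.565 between the axon libraries and at 0.679 between the retina libraries, and axon with retina libraries correlated at 0.400 to 0.536. Cre-negative library 1 stood apart, correlating at 0.784 with retina library 2 and at 0.564 with the other Cre-negative library. This library held mRNAs of photoreceptor and lens genes, among them Guca1a at 78.8 FPKM. The main counts that rest on it are given with and without it.

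To compare libraries of such unequal depth, genes were ranked within each library. Of 23995 genes listed, 1901 reached 1 FPKM in at least 2 of the 4 libraries and were ranked from percentile 0 to 100. Both axon ranks lay above both retina ranks for 420 genes (22.1% of those ranked) and both retina ranks above both axon ranks for 468 (24.6%), while 1013 overlapped. A wider distance, with at least 25 percentile points between the lower rank of one source and the higher rank of the other, was found for 84 genes in the axon direction (4.42%) and 102 in the retina direction (5.37%). These counts describe an order and carry no test. Listed zeros entered them unevenly, because genes at 0 shared the percentiles 8.4 and 19.9 in the axon libraries and 15.4 and 0.5 in the retina libraries. Of the 420 genes ranked higher in axons, 105 were at 0 in an axon library, and 247 had FPKM values that also did not overlap. Of the 84 with the wider distance, none was at 0 in an axon library and 78 had FPKM values apart. Among the 468 genes ranked higher in retina, 442 had FPKM values apart, as did all 102 with the wider distance. At the limit of 25 points, Usp48 stood at 33.8 and 159 FPKM in axons against 0 and 5.46 in retina just inside it, and Cxx1c stood at 35.1 and 153 against 0.126 and 5.67 just outside. On the other side, Pcbp4 stood at 0.684 and 0.390 FPKM in axons against 25.2 and 37.6 in retina inside the limit, and Fis1 at 0 and 0 against 2.76 and 7.09 outside it.

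**Figure D1:**
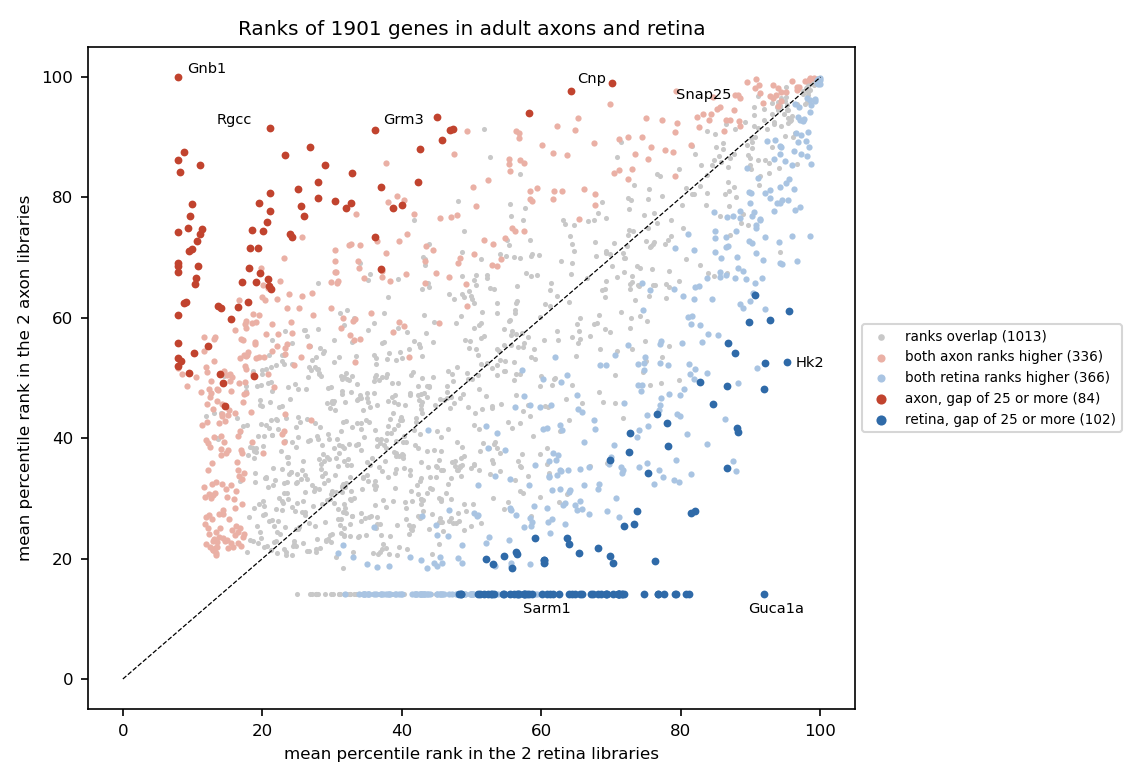
Mean percentile rank of each of 1901 genes in the 2 retina libraries (horizontal axis) and the 2 axon libraries (vertical axis), from 0 for the lowest to 100 for the highest FPKM. Colours give the order of the single libraries; the 84 axon and 102 retina genes with a distance of at least 25 percentile points lie far from the dashed line of equal rank, and the row of points near the bottom holds genes listed at 0 in both axon libraries.

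In the test across genes, limma on log2(FPKM + 1) with Benjamini-Hochberg adjusted p-values, 1 of 1901 genes was higher in axons at an adjusted p of 0.05 (0.0526%) and 0 were lower (0%). At an unadjusted p of 0.05 the numbers were 77 and 119. The study states that axons and retina came from the same animals, without saying which libraries share them, and with the replicate number as a block 3 genes were higher and 4 lower. The median log2 difference of axon minus retina over all genes was -0.34, and -0.01 after quantile normalization. The gene that passed was Gnb1 (ENSMUSG00000029064, chromosome 4, 155491361 to 155559269 of GRCm38, the mm10 assembly), which encodes a beta subunit of heterotrimeric G proteins, including the transducin of rods. Gnb1 stood at 14989 and 43481 FPKM in the axon libraries and was listed at 0 in both retina libraries, a log2 difference of 14.64 (SE 0.94, adjusted p = 0.0247 by limma), whose size depends on the pseudocount because of the zeros. The call was lost with a pseudocount of 0.1 (adjusted p = 0.0572 by limma) and without retina library 1 or 2 (0.102 and 0.123). Gnb1 was the top gene of all 4 SC libraries, with 36690.4 and 64219.5 FPKM in Cre-negative SC. In the libraries without run-off its order was the opposite, with 81712 CPM, the count scaled to a fixed library total, in axons and 304534 CPM in retina, where it was counted by 1427132 reads. The listed 0 in the retina libraries was therefore not met in the count table. The smallest p-values after Gnb1 belonged to Hsf2, a heat-shock transcription factor, and Pam, which amidates neuropeptides. Hsf2 stood at 6236 and 4634 FPKM in axons and at 196 and 171 in retina (log2 difference 4.87, SE 0.58, adjusted p = 0.222 by limma), and Pam at 1204 and 2865 against 18.5 and 23.7 (6.4, SE 0.87, adjusted p = 0.257 by limma). In the other direction they were Set, a histone chaperone, Actb, the beta-actin gene, and Dhrs3, a reductase of retinaldehyde, with log2 differences of -3.21, -2.58 and -5.67 and adjusted p-values of 0.257, 0.324 and 0.373 by limma. None of these 5 passed, although their 2 axon values did not overlap with their 2 retina values.

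The genes with the widest distance in the axon direction, among those at 10 FPKM or more in both axon libraries, were Gnb1, Nfatc2, Spop, Pdp1, Rgcc, Hbb-bs, Dmd, Hba-a1, Cul1, Mkrn2, Cdr1 and Ppp1r9b. They include a calcineurin-regulated transcription factor (Nfatc2), ubiquitin ligase parts (Spop, Cul1 and Mkrn2), a phosphatase that activates pyruvate dehydrogenase (Pdp1), dystrophin (Dmd) and spinophilin (Ppp1r9b), which ties protein phosphatase to actin at synapses. Nfatc2 stood at 112 and 114 FPKM in axons and was listed at 0 in both retina libraries. Rgcc, a regulator of the cell cycle (ENSMUSG00000022018, chromosome 14, 79288756 to 79301645), stood at 181 and 252 FPKM in axons against 0 and 2.46 in retina, a distance of 64.6 percentile points. Cul1 was more uneven, at 24.6 and 220 FPKM in axons against 0 and 0.420 in retina. In each of these genes both axon libraries were far above both retina libraries, and the axon libraries differed from each other by less than that. Without run-off, Nfatc2, Spop, Rgcc, Cul1, Mkrn2 and Ppp1r9b had the higher CPM in axons. Gnb1, Pdp1 (116 CPM in axons against 563 in retina) and Dmd (2.76 against 33.5) had it in retina. Cdr1 and the haemoglobin genes had at most 1 read in either library. Cdr1 (23.8 and 26.5 against 0 and 0.412 FPKM) overlaps a circular RNA transcribed from the opposite strand, and the library method is not stated to keep strand, so reads of the 2 cannot be told apart. Hbb-bs and Hba-a1, the haemoglobin chains of red blood cells, have near-identical copies, which makes their levels uncertain.

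**Figure D2:**
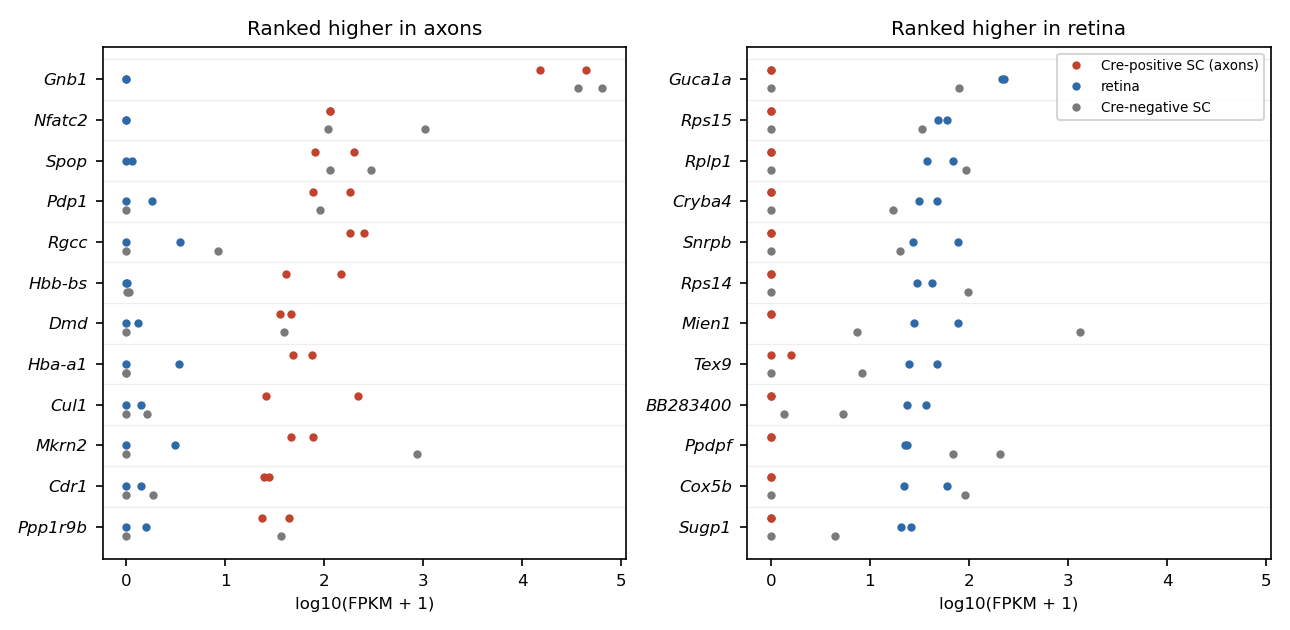
FPKM of the 12 genes with the widest rank distance in each direction, on a log10(FPKM + 1) axis, with 1 point per library and 2 libraries per group. On the left, the axon points lie to the right of the retina points for every gene, and at least 1 Cre-negative point lies above both axon points for Gnb1, Nfatc2, Spop and Mkrn2; on the right, axon points lie at 0 except for Tex9.

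The SC without Cre shows which of these mRNAs also come down without tagged ribosomes. Both axon ranks lay above both Cre-negative ranks for 210 of the 1901 genes (11%). Among the 420 genes ranked higher in axons than in retina the number was 129 (30.7%), and 43 of the 84 with the wider distance (51.2%) were also above Cre-negative SC (49 without Cre-negative library 1). Since both counts use the same axon libraries, the larger share is not independent of the axon call. Without Cre-negative library 1 the count was 163 of 420 (38.8%, against 25.4% of all genes), and without Cre-negative library 2 it was 266 (63.3%, against 27.8%). The leading genes above both backgrounds were Rgcc, Hbb-bs, Hba-a1, Cul1, Cdr1, Grm3, Serp2, Trp53i11, Mtag2 and Arhgef7. Rgcc stood at 7.43 and 0 FPKM in Cre-negative SC. Mtag2 stood at 95 and 288 FPKM in axons, 0 and 3.91 in retina and 0 in both Cre-negative libraries. Arhgef7, an exchange factor for Rac1 and Cdc42, stood at 28.7 and 16.7 FPKM in axons, 0 and 2.05 in retina and 0 in both Cre-negative libraries. Serp2, a small protein of the endoplasmic reticulum, stood at 17.8 and 116 FPKM against 0 and 0.892 in retina, again with 0 in Cre-negative SC. For these 4 genes, chosen for this order, the axon libraries were above the retina and Cre-negative libraries by a wide margin. Without run-off, Rgcc (21.8 against 1.28 CPM), Arhgef7 (43.2 against 2.77) and Serp2 (78.5 against 9.39) were higher in axons. Mtag2 was not, at 0.919 CPM in axons and 1.07 in retina. For Nfatc2, Spop and Mkrn2 the axon libraries were not above both Cre-negative libraries. Cre-negative SC held 107 and 1027 FPKM of Nfatc2, 113 and 296 of Spop, and 0 and 865 of Mkrn2.

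Among the 20 gene lists, photoreceptor genes held the most members in the retina direction. Of 50 genes of phototransduction and photoreceptors, 19 could be ranked, and 15 ranked higher in retina, 1 higher in axons and 3 overlapped, with a median percentile difference (axon minus retina) of -39.7 beside 0.1 for all genes. The 1 member in the other direction was Gnb1, and the median was -39.9 without it. None passed the adjusted p except Gnb1, and 11 had an unadjusted p under 0.05 in the retina direction. Gnat1, the alpha subunit of rod transducin, stood at 1.25 and 1.79 FPKM in axons against 257 and 50.2 in retina, and Pde6g, the inhibitory subunit of the rod phosphodiesterase, at 5.39 and 1.01 against 308 and 173. Guca1a, which activates retinal guanylate cyclase (ENSMUSG00000023982, chromosome 17, 47394558 to 47400584), had the widest distance of all genes in this direction, with 0 in both axon libraries against 215 and 224 FPKM in retina. The axon values of these 3 genes were at most 5.39 FPKM and every retina value was at least 50.2. Sag (arrestin), Rom1 and Prph2 (disc rim proteins), Cngb1 (the beta subunit of the rod channel), Opn1sw (short-wave cone opsin), Unc119, Tulp1, Rbp3, Nrl, Pdc and Samd11 had the same order. Without Gnb1, the list summed to 27 and 16.3 FPKM in axons, 2219 and 1233 in retina and 368 and 6.69 in Cre-negative SC. The count of 15 of 19 was 9 of 10 among the genes at 1 FPKM in each source and 7 of 7 among those above 0 in all 4 libraries.

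The promoters of these genes are shown because photoreceptor genes are known targets of the homeodomain factor CRX, whose core motif is TAATCC. The motif was searched on both strands in the RefSeq promoters of GRCm38.p6, which run from 250 bases before to 50 bases after each start. It was present in 6 of the 12 retina-ranked photoreceptor genes that have an entry (50%), in 14 of 35 genes of the whole photoreceptor list (40%) and in 8.14% of 27025 genes in the table. The shares were 8.64% among all genes ranked higher in retina and 6.71% among those ranked higher in axons. The sequences run from 5′ to 3′ along the gene, and the capitals mark the motif, read as GGATTA where it lies on the opposite strand. A match describes these letters and is not a bound site.
Guca1a, chr17:47400648-47400673, minus strand, 57 bases before the start: tgttaagaagGGATTAgcagactgca
Sag, chr1:87803583-87803608, plus strand, 87 bases before the start: aagaggtttaGGATTAaaaaaaaaaa
Rbp3, chr14:33953924-33953949, plus strand, 69 bases before the start: gaattagacaGGATTAaaggcttagc
Cngb1, chr8:95306628-95306653, minus strand, 58 bases before the start: ctgcacatgcTAATCCtttgcacccg
Cngb1, chr8:95306595-95306620, minus strand, 25 bases before the start: tagtgccaatTAATCCtggctgggtc
The matches shown lie within 87 bases of the start. Unc119 and Samd11, the other retina-ranked members with a match, held it 118 bases before the start (Unc119) and 193 and 67 bases before it (Samd11).

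Other retinal cell types had few ranked members. More bipolar and amacrine genes ranked higher in retina than in axons, and Müller glia genes were mixed. Lens genes ranked higher in retina where they did not overlap. Without run-off, 9 of 10 bipolar and 11 of 14 Müller glia genes with at least 10 reads were higher in retina. Of 12 amacrine and horizontal cell genes, 6 were higher in each source. Of 17 bipolar cell genes only 3 could be ranked, 2 higher in retina and 1 higher in axons. Gnb3, the beta subunit of the bipolar and cone G protein, stood at 0.763 and 0.435 FPKM in axons against 104 and 94.2 in retina. The member in the axon direction was Grik1, a kainate receptor subunit, at 1.12 and 0 FPKM in axons against 0 and 1.11 in retina, so that its FPKM values overlapped. Of 19 amacrine and horizontal cell genes 5 could be ranked, and 3 ranked higher in retina, among them Pax6 (0 and 0 against 1.11 and 4.16 FPKM) and Calb2, or calretinin (0 and 0 against 7.97 and 3.96 FPKM). Among 7 ranked Müller glia genes the directions were mixed. Rlbp1, a retinaldehyde-binding protein, stood at 0 and 0 FPKM in axons against 1.91 and 15.4 in retina, while Glul, the glutamine synthetase that SC astrocytes also express, stood at 87.2 and 50 FPKM in axons against 7.35 and 1.67. Of 24 lens and other eye genes, 12 could be ranked, and 6 ranked higher in retina and 0 higher in axons (12 in retina without axon library 2 or without retina library 1). These are shares of 50% and 0%, beside 24.6% and 22.1% of all ranked genes. With 1 FPKM required in each source, 3 of 9 ranked higher in retina, beside 18.4% of all genes. Among genes above 0 in all 4 libraries it was 1 of 2. Cryaa, the alpha-A crystallin, stood at 2.71 and 4.59 FPKM in axons against 84.8 and 548 in retina, and Cryba4 was at 0 in both axon libraries against 30.1 and 46.6. Summed FPKM of this list was 309 and 1684 in the retina libraries, 4.96 and 22.1 in the axon libraries and 520.4 and 2.41 in the Cre-negative libraries. These mRNAs were thus found in both retina libraries and in Cre-negative library 1. In retina library 1, Crygb, Crygc, Crygd, Crygs and Lim2 were listed at 0. Whether lens tissue was the source of these mRNAs was not tested, nor was its part in the retina-ranked genes.

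RGC genes were seldom ranked. Of 26, 7 entered, with 1 in each direction and 5 overlapping. The classical RGC markers were sparse in both sources: Rbpms and Slc17a6 were listed at 0 in all 6 adult libraries, Pou4f2 reached only 0.206 FPKM, in retina library 2, and Sncg stood at 0 and 1.31 FPKM in axons against 0 and 6.64 in retina. Pou4f1, a POU-domain factor of RGCs and of some SC neurons, ranked higher in retina, at 109 and 27.5 FPKM in axons against 315 and 1274. Uchl1, a neuronal ubiquitin hydrolase, ranked higher in axons, at 247 and 101 FPKM against 13.7 and 23.3, with 5.61 and 588 in Cre-negative SC.

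The few oligodendrocyte and myelin genes that could be ranked were in the axon direction. Of 16, the 3 that could be ranked all ranked higher in axons, beside 22.1% of all ranked genes, with a median percentile difference of 41.4. The wider distance was found for 2 of them, while Qdpr was 5.5 points above retina. Cnp, an enzyme of myelin sheaths, stood at 653 and 878 FPKM in axons against 21.1 and 9.57 in retina (log2 difference 5.63, SE 0.96, adjusted p = 0.373 by limma). Mbp, myelin basic protein, stood at 81.7 and 109.6 FPKM against 0.0527 and 3.26. Cre-negative SC held 181 and 3128 FPKM of Cnp and 0 and 1019 of Mbp, so that neither gene was above both backgrounds. Qdpr, which recycles tetrahydrobiopterin, was the only member above both Cre-negative ranks, at 22.1 and 287 FPKM against 1.48 and 0, and was so without Cre-negative library 1 too, whereas all 3 were above the background without Cre-negative library 2. The list summed to 823 and 1298 FPKM in axons, 21.1 and 24.4 in retina and 267 and 4575 in Cre-negative SC. Mobp was at 0 in all 6 libraries. Of 16 astrocyte genes, 5 could be ranked and 2 ranked higher in axons (40%, beside 22.1% of all ranked genes). Gja1, connexin 43, stood at 613 and 563 FPKM in axons, 163 and 44.3 in retina and 179.7 and 253 in Cre-negative SC, and the other, Mt1, was at 0 in an axon library. Without run-off Gja1 had the opposite order, at 336 CPM in axons and 1604 in retina. Of 12 astrocyte genes with at least 10 reads, 7 were higher in axons and 5 in retina. Of 15 microglia and vascular genes only the haemoglobin genes could be ranked. Hbb-bs stood at 146 and 39.6 FPKM in axons and at no more than 0.0613 in the other 4 adult libraries, and Hba-a1 at 73.3 and 47.6 against no more than 2.44. C1qa and C1qb were at 0 in all 6 libraries, while C1qc stood at 106 in axon library 1 only. Oligodendrocytes, astrocytes and blood cells lie in the SC and carry no tag, and the part of their mRNA in the axon-ranked genes was not tested.

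**Figure D3:**
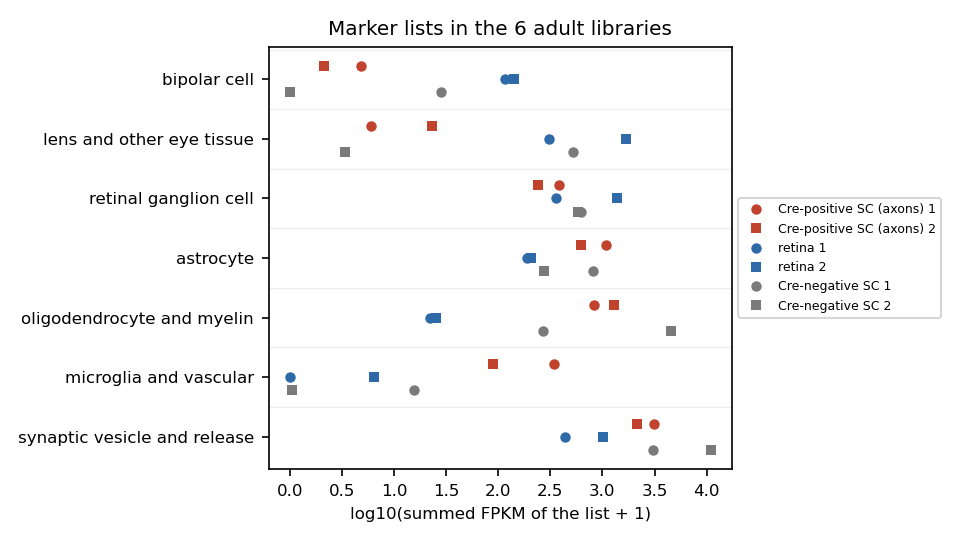
Summed FPKM of 7 marker and synaptic lists in each of the 6 adult libraries, as log10(sum + 1), with circles for replicate 1 and squares for replicate 2. Bipolar and lens sums are high in both retina libraries and in Cre-negative library 1, and the oligodendrocyte and myelin sum is high in all SC libraries, with 823 and 1298 FPKM in axons and 4575 in Cre-negative library 2.

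Among synaptic vesicle and release genes, 15 of 52 could be ranked. Of these, 6 ranked higher in axons, 3 higher in retina and 6 overlapped, with a median percentile difference of 16.3, and none was 25 points apart. These are shares of 40% and 20%, beside 22.1% and 24.6% of all ranked genes. Without a filter on low values 9 of 45 ranked higher in axons and 7 higher in retina, with a median of 1.3, and without retina library 1 the median was 3.7. Snap25, the SNARE protein that drives vesicle fusion at the plasma membrane (ENSMUSG00000027273, chromosome 2, 136713453 to 136782428), stood at 2682 and 1462 FPKM in axons against 132 and 151 in retina (log2 difference 3.80, SE 0.69, adjusted p = 0.373 by limma). Cplx2, complexin 2, which clamps and promotes SNARE-driven fusion, stood at 226 and 330 FPKM against 7.6 and 34.3. Unc13a, which primes vesicles, stood at 4.86 and 1.68 against 0.0725 and 0.176. In Cre-negative SC, Snap25 stood at 2187 and 7449 FPKM, Cplx2 at 222 and 877 and Unc13a at 2.98 and 6.7, so that at least 1 background library reached the axon level of each. Of the 6 members ranked higher in axons, only Atp6v1b2, a subunit of the vesicular proton pump, lay above both Cre-negative ranks, and its FPKM values overlapped with retina (22.7 and 0.566 against 3.92 and 4.9). Without Cre-negative library 1 the number was 2 of 6, and without library 2 it was 3 of 6. Vamp2 and Rab3a had the opposite order, with 0 and 0 FPKM of Vamp2 in axons against 46 and 4.75 in retina, and 0 and 1.14 of Rab3a against 155 and 18.2. Without run-off, Vamp2 was again higher in retina (81.8 CPM in axons against 111), and Rab3a was not (45.1 against 32.4). The t-SNAREs Stx1a and Stx3 could not be ranked. Stx3, the syntaxin of retinal ribbon synapses, stood at 0.908 and 0.260 FPKM in axons and at 0 and 41.1 in retina.

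Axonal cytoskeleton and transport genes had 27 of 44 members ranked, with 9 higher in axons, 3 higher in retina and 15 overlapping. These are shares of 33.3% and 11.1%, beside 22.1% and 24.6% of all ranked genes. The FPKM values were apart as well for 5 of the 9, and the lean to axons depended on the retina libraries: without retina library 2 there were 18 higher in axons and 5 higher in retina, and without retina library 1 there were 10 and 9, with a median percentile difference of -0.7 in place of 7.7. With 1 FPKM required in each source the counts were 5 and 3. Kif5a, the neuronal kinesin-1 heavy chain, stood at 9.25 and 27.5 FPKM in axons against 0 and 0.487 in retina. Map2, a microtubule-associated protein best known from dendrites, stood at 103 and 12.2 against 0.215 and 1.45, and Ank2, ankyrin-B, at 11 and 6.04 against 0.0356 and 0.401. Sptbn1, a beta-spectrin, stood at 146 and 41.6 against 6.23 and 9.91, and Kif1b at 154 and 119 against 49.7 and 29.8. In Cre-negative SC the values were 0.291 and 36.4 FPKM for Kif5a, 96.5 and 49.9 for Map2 and 6.75 and 5.69 for Ank2. At least 1 background library thus reached the lower axon value of each. Of the 9 members ranked higher in axons, 2 lay above both Cre-negative ranks, Tuba4a and Kif1b. The number was 2 without Cre-negative library 1 and 6 without library 2. Without run-off, Map2 was higher in retina, at 0.613 CPM in axons against 28.8, and Ank2 higher in axons, at 58.5 against 31.8. Tubulins were divided. Tuba4a ranked higher in axons, at 7.46 and 0.387 FPKM against 0 and 1.92, although its FPKM values overlapped, and Tubb5 ranked higher in retina, at 1335 and 2127 against 2123 and 6336. Tubb3, the neuronal beta-tubulin, stood at 9.08 and 107 FPKM in axons against 0 and 22, and overlapped. Mapt, the gene of tau, also overlapped, at 1.27 and 62.2 against 0.118 and 3.97.

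Actin and actin-binding genes showed no order as a group. Of 18 ranked, 2 ranked higher in axons, 2 higher in retina and 14 overlapped, with a median percentile difference of -2.4. Rac1, the small GTPase that drives lamellipodia, stood at 60.1 and 41.3 FPKM in axons against 0.727 and 2.59 in retina, and at 30.9 and 132 in Cre-negative SC. Actb itself stood at 7793 and 5684 FPKM in axons against 33277 and 47561 in retina, with 20097 and 10587 in Cre-negative SC. Its percentile was 99.7 or above in all 6 libraries, so that its ranks hardly differed.

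Most ranked ribosomal protein, respiratory chain and proteasome genes overlapped. The shares ranked higher in retina were 21.6%, 27% and 23.1%, near the 24.6% of all ranked genes, and those ranked higher in axons were 8.11%, 5.41% and 7.69%, beside 22.1%. Their order turned without retina library 2, where 17 ribosomal protein genes ranked higher in axons and 9 higher in retina, 18 and 10 respiratory chain genes, and 7 and 4 proteasome genes, and the respiratory chain also turned without axon library 2 (17 and 12). With 1 FPKM required in each source, 2, 6 and 0 ranked higher in retina. Of 82 cytosolic ribosomal protein genes 37 could be ranked, and 8 ranked higher in retina, 3 higher in axons and 26 overlapped. The widest distances were those of Rps15 (47.4 and 58.7 FPKM in retina), Rplp1 (37 and 68.5) and Rps14 (41.4 and 28.8), each at 0 in both axon libraries. These genes have many processed copies in the genome, so their values are uncertain, and in the libraries without run-off Rplp1 was higher in axons, at 30.6 CPM against 10.2. Of 77 nuclear-encoded genes of the respiratory chain, 37 could be ranked, with 10 higher in retina and 2 higher in axons. Cox5b stood at 59.5 and 21 FPKM in retina, Cox4i1 at 89.5 and 40.4 and Cox6c at 17.3 and 23.6, with 0 in both axon libraries for Cox5b and Cox6c and 2.62 and 0 for Cox4i1. Without run-off, 40 of 65 respiratory chain genes with at least 10 reads were higher in axons and 25 higher in retina, a majority opposite to that of the ranks. Cox4i1 was among the former, at 195 CPM in axons and 89.4 in retina. Of 47 ribosomal protein genes with enough reads, 25 were higher in axons and 22 in retina. Of 28 proteasome genes the numbers were 13 and 15. Of 17 ranked genes of glycolysis and the citric acid cycle, 7 ranked higher in retina (41.2%) and 1 higher in axons, and without retina library 2 the counts were 7 and 5. With 1 FPKM required in each source, 3 of 13 ranked higher in retina and 0 higher in axons, beside 18.4% and 13.8% of all genes. Without run-off, 16 of 31 members with at least 10 reads were higher in axons and 15 in retina. Hk2, the hexokinase of photoreceptors and other cells with high aerobic glycolysis (ENSMUSG00000000628, chromosome 6, 82725025 to 82774454), stood at 3.07 and 3.95 FPKM in axons against 922 and 261 in retina (log2 difference -6.78, SE 1.22, adjusted p = 0.373 by limma). Aldoa followed with 7.97 and 0.566 against 31.1 and 40.9. Of 13 ranked proteasome genes, 3 ranked higher in retina, Psmb6, Psmc3 and Psmb2, all at 0 in both axon libraries and at 1.47 to 6.35 FPKM in retina, and 1 ranked higher in axons. Psmb6 had the opposite order without run-off, at 82.1 CPM in axons against 19.4 in retina, while Psmc3 and Psmb2 kept theirs.

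Chromatin and transcription regulators were in the retina direction, with 8 of 17 ranked genes higher in retina and 1 higher in axons, and a median percentile difference of -14.9. These are shares of 47.1% and 5.88%, beside 24.6% and 22.1% of all ranked genes. Without run-off, 24 of 35 members with at least 10 reads were higher in retina and 11 higher in axons. H3f3a, a replication-independent histone, stood at 1.43 and 0 FPKM in axons against 9.3 and 11 in retina, and Hmgn1, a nucleosome-binding protein, at 5.03 and 0.710 against 68.2 and 41.7. Smarca4, the ATPase of chromatin remodelling complexes, stood at 0.407 and 0 against 22.2 and 4.11, and Tet2, which oxidises methylcytosine, at 8.67 and 0.403 against 43.5 and 20.2. Of these 4 named genes, Smarca4 had the opposite order without run-off, at 53.6 CPM in axons and 18.1 in retina, and the others kept theirs. The 1 gene ranked higher in axons was Smarcc1, a partner of Smarca4, at 4.59 and 1.72 FPKM in axons against 0.0343 and 0.953.

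**Figure D4:**
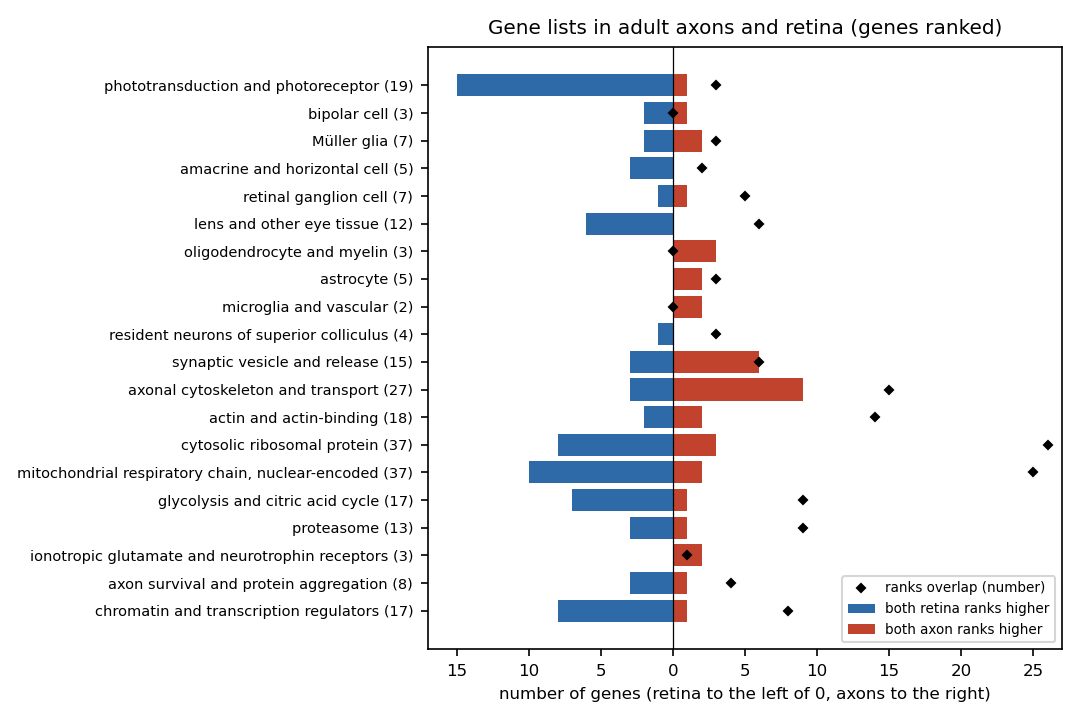
Number of ranked genes in 20 lists with both retina ranks higher (bars to the left) or both axon ranks higher (bars to the right), with the number whose ranks overlap as a diamond and the number ranked in parentheses. Photoreceptor genes lie in the retina direction (15 of 19), axonal cytoskeleton genes more often in the axon direction (9 against 3), and most ribosomal protein genes overlap (26 of 37).

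Glutamate and neurotrophin receptors were hardly detected: of 23, 3 could be ranked. Grm3 and Grik1 ranked higher in axons and 0 higher in retina, beside 22.1% and 24.6% of all ranked genes. With 1 FPKM required in each source, 1 ranked in each direction. Without a filter on low values 6 of 14 ranked higher in axons and 0 higher in retina, beside 11.8% and 8.21% of all genes. All 5 members with enough reads had the higher CPM in axons without run-off. Grm3, a metabotropic glutamate receptor that inhibits adenylyl cyclase (ENSMUSG00000003974, chromosome 5, 9485541 to 9725170), stood at 143 and 304 FPKM in axons, 1.13 and 3.20 in retina and 71.3 and 97.8 in Cre-negative SC. It was above both backgrounds, with a distance of 49.8 percentile points to retina and 4.4 points to Cre-negative SC, although only 0.306 CPM of it were counted in the axon library without run-off. Of 23 genes of axon survival and protein aggregation, 8 could be ranked, with 1 higher in axons and 3 higher in retina. The 1 was Atf4, a transcription factor of the integrated stress response (ENSMUSG00000042406, chromosome 15, 80255184 to 80257541), at 152 and 199 FPKM in axons, 0.757 and 36 in retina and 11.4 and 0 in Cre-negative SC. Atf4 had no CPM in the axon library without run-off and 90.7 CPM in that of retina. Sarm1, the NAD-cleaving enzyme that executes axon degeneration (ENSMUSG00000050132, chromosome 11, 78472330 to 78497754), was at 0 in both axon libraries and at 6.99 and 12.2 FPKM in retina, above the floor of the axon libraries. Bax, which permeabilises mitochondria in cell death, had the same order, at 0 and 0 against 4.97 and 3.57. Nmnat2, the axonal enzyme that makes NAD, overlapped, with 66.8 and 0 FPKM in axons against 3.30 and 1.49. Prnp stood at 15.8 and 0 FPKM in axons against 0 and 5 and overlapped. App, Htt and Acot7 did not reach the limit for ranking. App stood at 0.428 and 0.491 FPKM in axons, Htt at 0 in both axon libraries and Acot7 likewise, with 6.85 FPKM in retina library 2. Acot7 was nevertheless counted by 1034 reads (317 CPM) in the axon library without run-off and by 82 in that of retina. Htt was counted by 42 and 0 reads, so the listed 0 of both genes in axons was not met there. Nmnat2 was also higher in axons, at 358 CPM against 28.4. App (10.7 against 16.2 CPM) and Prnp (0 against 32.9) were higher in retina. Of 17 list members with at least 10 reads, 7 were higher in axons and 10 in retina.

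Beyond these lists, the widest distances in the retina direction were those of Snrpb, a core protein of spliceosomal particles (26.4 and 76.8 FPKM in retina), Mien1 (77.2 and 26.9), Tex9 (46.8 and 23.6), BB283400 (35.6 and 22.9), Ppdpf (21.7 and 22.6) and Sugp1, a splicing factor (24.9 and 19.6). All were at 0 in both axon libraries except Tex9, at 0.610 and 0. Snrpb was nevertheless counted at 265 CPM in axons and 79.8 CPM in retina without run-off. The axon libraries were the shallower ones, so a 0 there was set against their floor. Of the 468 retina-ranked genes, 142 were at 0 in both axon libraries, and 58 of the 102 with the wider distance were. Both retina values were above 2.12 FPKM, the higher of the axon floors, for 423 of the 468 genes and for 102 of the 102. Of the 142, 11 had more than 100 CPM in the axon library without run-off.

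The libraries without run-off measured both sources once more, with 3262914 reads on genes in SC and 4686284 in retina, and held no replicate, so that no test was made. Of 1739 ranked genes with at least 10 reads, 875 (50.3%) had the higher CPM in axons. The share was 60.2% (218 of 362) among genes ranked higher in axons and 64.5% (40 of 62) among those with the wider distance. In the other direction, 63.1% (279 of 442) of the genes ranked higher in retina had the higher CPM in retina, and 70.7% (65 of 92) of those with the wider distance. Axon-ranked genes above both Cre-negative backgrounds had the higher CPM in axons in 61.5% (67 of 109) and the remaining ones in 59.7% (151 of 253), or 61.3% (87 of 142) and 59.5% (131 of 220) without Cre-negative library 1. The order was therefore met again in a majority of genes but far from all of them. It was nearly uniform in photoreceptor genes, of which 43 of 44 with enough reads were higher in retina, and uniform in lens genes, with 18 of 18. The 5 glutamate and neurotrophin receptor genes with enough reads were all higher in axons. Gnat1 had 0.919 CPM in axons and 3699 in retina, and Hk2 had 2.15 and 2515. In the axon direction, 31 of 43 axonal cytoskeleton and transport genes and 6 of 7 oligodendrocyte and myelin genes were higher in axons, with Kif5a at 302 CPM against 2.35 and Cnp at 4805 against 125. Synaptic vesicle and release genes were divided, 22 in axons and 24 in retina, and Snap25 had 3189 CPM in axons and 9078 in retina, the opposite of its order in FPKM. RGC genes, which could seldom be ranked, were higher in axons in 12 of 19, with Nefl, the light neurofilament subunit, at 556 CPM against 133. The haemoglobin genes Hbb-bs and Hba-a1 were counted at 0 CPM in both.

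**Figure D5:**
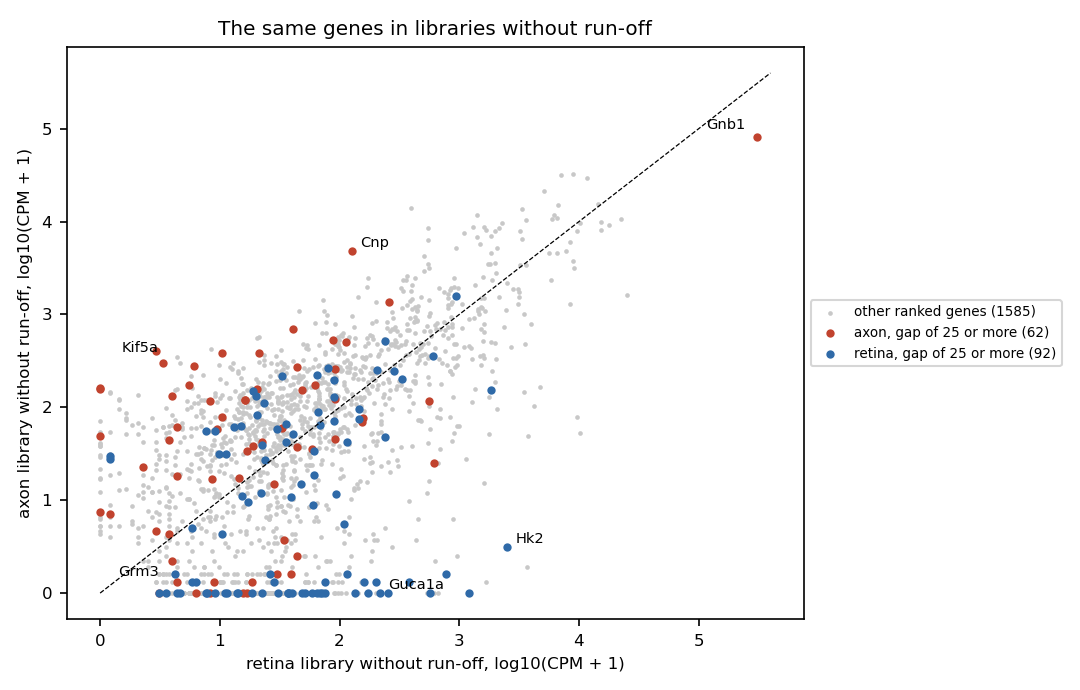
CPM in the retina library (horizontal axis) and the axon library (vertical axis) without run-off, both as log10(CPM + 1), for ranked genes with at least 10 reads, 1 library per source. Of the 62 genes ranked higher in axons by at least 25 points 40 lie above the dashed line of equal CPM, and of the 92 ranked higher in retina 65 lie below it, with Guca1a and Hk2 near the bottom and Gnb1 at the upper end below the line.

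Whether the difference between axon and retina was particular to the adult was tested against P7.5, the stage before it. In a limma interaction over the 8 libraries, 0 of 3957 genes passed an adjusted p of 0.05 (0%), with 19 and 13 genes at an unadjusted p of 0.05 in the 2 directions and a smallest adjusted p of 1.0 by limma. The smallest p-values were those of Rraga, a GTPase that signals amino acids to mTORC1, Gbas and Fabp5, a fatty acid-binding protein. Rraga stood at 133 and 346 FPKM in axons against 0.936 and 31.2 in retina in the adult, and at 28.4 and 58.2 against 294 and 53 at P7.5. No gene can therefore be said to differ between axon and retina in the adult other than at P7.5. When the genes of the adult were ranked at P7.5, 31% of the 84 axon genes with the wider distance ranked higher in axons there too, beside 20.8% of all 1900 genes, and 41.2% of the 102 retina genes ranked higher in retina, beside 18.3%.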

How the data were processed

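Ribosome-bound mRNA was measured in adult SC and retina. The authors mapped reads to mm10 with TopHat2 2.0.12, and deposited FPKM from Cufflinks 2.2.1 and, for the run-off experiment, counts of reads per gene from HTSeq 0.6.1p1. Samples were grouped by title and source. Genes at 1 FPKM in 2 of the 4 libraries were ranked within each library, with ties at their mean rank. No count test was used, since replicated libraries hold FPKM. limma 3.58.1 (R 4.3.3, trend, robust, two-sided) was fitted to log2(FPKM + 1) of the 4 libraries, which understates changes of low genes, and checked on simulated data. CPM was each count divided by its library total. Depth was estimated from 3751 genes with 1 transcript. Identifiers are from GENCODE M21. Whether replicates came from separate litters is not stated, so p-values measure the spread between libraries. Python 3.11.15, numpy 2.4.6, pandas 2.3.3 and matplotlib 3.10.9 were used.

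The comparison, the 20 gene lists and the tests were chosen with earlier results of these data known. Named genes are the 12 widest rank distances in each direction at 10 FPKM or more in both higher libraries, the 10 widest also above Cre-negative SC, the 3 smallest limma p-values in each direction and 3 of the interaction, up to 4 members with the widest distance and the first 3 of each list, and genes the study names for adult axons (some members are not reported here); further members and the genes beside the 25-point limit were named after their values were seen.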

Additional observations from a re-analysis of the deposited data

How the results depend on the processing

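By limma, 1 gene was higher and 0 were lower in axons. The higher and lower counts were 5 and 4 after quantile normalization, 3 and 3 without a filter, and 3 and 4 with a replicate block, although same-numbered axon and retina libraries did not deviate together (r = -0.0982). They were 8 and 10 with the spread taken from all 24 libraries. The higher count was 3 with the spread of the 6 adult libraries, 0 with a pseudocount of 0.1 and 0 among genes above 0 FPKM in all 4 libraries, an alternative chosen after seeing the data. Leaving out 1 library gave 0 to 58 higher (58 without axon library 1) and 0 to 183 lower (183 without retina library 1, 75 without axon library 1, 20 without axon library 2). For the difference from P7.5 it gave 0 to 1 in each direction, with 1 and 1 without P7.5 retina library 2.

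Of the rank counts, 420 axon and 468 retina genes became 1019 and 708 without a filter, 211 and 282 with 1 FPKM required in each source, and 230 and 232 among genes above 0 in all 4 libraries. The axon count was 240 with a filter of 5 FPKM and 269 by FPKM values that do not overlap. The counts with 25 points, 84 and 102, became 30 and 43 with 1 FPKM in each source, 55 and 50 above 0 in all 4, 193 and 271 at 10 points, and 13 and 11 at 50 points, and the retina count was 231 without a filter. The 129 and 43 axon genes above Cre-negative SC became 81 and 17, and 71 and 13, under the same stricter filters. Leaving out 1 library, which leaves fewer ranks to separate, gave 600 to 821 axon and 639 to 731 retina genes, 175 to 241 and 175 to 279 with 25 points, and 146 to 444 and 49 to 178 above Cre-negative SC. With at least 50 reads, 66.8% of axon-ranked genes and 54.7% of all genes had the higher CPM in axons without run-off. Of the 20 lists, 5 had the opposite majority under at least 1 alternative: ribosomal protein, respiratory chain and proteasome genes as given in the report, ribosomal protein genes also among those above 0 in all 4 libraries (2 higher in axons, 0 in retina), resident neurons of the SC without retina library 2 (3 and 1), and amacrine and horizontal cell genes above 0 in all 4 (1 and 0). The median percentile difference changed sign for 10 lists. The photoreceptor, lens, oligodendrocyte, chromatin, glycolysis and synaptic vesicle lists kept both in every alternative run. Some of these runs ranked few members, such as 2 lens genes above 0 in all 4 libraries. The glutamate and neurotrophin receptor list did not turn either, but was tied at 1 and 1 with 1 FPKM required in each source. The low depth of the axon libraries limits what a listed 0 there can show.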

Other observations

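The order of the adult was also looked up in the younger stages, where axons and retina have 2 libraries each. At P0.5, 47% of the axon genes with the wider distance ranked higher in axons, beside 41.2% of all genes, and 48% of the retina genes ranked higher in retina, beside 39.9%. At E17.5 the numbers were 17 of 83 beside 333 of 1898, and 32 of 102 beside 367 of 1898. These shares carry no test.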
